A study of Homo sapiens with 15 samples.

Results

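The mitochondrial chaperones and proteases described here were 8 genes chosen by symbol: HSPD1, HSPE1, HSPA9, GRPEL1, TRAP1, LONP1, CLPP and CLPX. They made up 8 of the 59608 genes in the table, and all 8 were among the 13561 genes that entered the tests, those averaging 10 or more normalized counts. RNA was sequenced from MDA-MB-231 cells, an established line of triple-negative breast cancer, grown in 2D on dishes. The cells were treated for 6 h with ZJ-101, a truncated synthetic form of superstolide A from a marine sponge, at 0.5, 5, 50 or 500 nM, and the controls received 0.1% DMSO as vehicle. Each of the 5 groups had 3 libraries, 15 in all, which the study's methods describe as biological replicates of a single cell line.

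Most mitochondrial proteins are made in the cytosol, threaded unfolded through the import channels and refolded inside. HSPA9 pulls the chain into the matrix, HSPD1 and HSPE1 enclose it in a chamber where it folds, and TRAP1 acts on proteins nearer their final shape. LONP1 and the pair of CLPP and CLPX degrade what is damaged or unassembled. These genes are the classical readout of the mitochondrial unfolded protein response, a programme that raises matrix chaperones and proteases when protein folding in the organelle fails. The shared promoter region of HSPD1 and HSPE1 is also a known target of the heat-shock factor HSF1.

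The libraries held 12415519 to 15284762 reads in genes, and values were divided by the authors' size factors, so that a normalized count is a read count brought to a common depth. The line's own markers were abundant, from 3471 counts for EGFR to 18413.5 for VIM in single libraries, and the 3 leukocyte markers looked at (PTPRC, CD3E and CD68) reached no more than 3.53. Of 6 luminal markers ESR1 reached no more than 4.3, PGR 17.3 and FOXA1 31.9, while GATA3, CDH1 and EPCAM stood between 107 and 320.2 counts. Of 2 endothelial markers CDH5 reached no more than 3.09 and PECAM1 held 201 to 321. Transcripts of the mitochondrial genome took 0.889% to 2.06% of reads, and their range within DMSO (0.942% to 1.58%) overlapped that of every dose. Replicate 2 of 0.5 nM stood apart from its group: its read counts differed from those of the other two libraries with a chi-square of 11.1 and 16.6 per degree of freedom, against 2.04 to 6.27 for the other replicate pairs. It was the highest library of its group for HSPD1, HSPE1, HSPA9, GRPEL1, LONP1 and CLPP, and the members' calls that change without it are given with and without it, beside the share of all genes called without it.

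In vehicle-treated cells the 8 transcripts spanned a wide range of levels. Per kilobase of the canonical transcript, HSPD1 was the most abundant at 3938 ± 8.42 normalized counts (SD, n = 3), followed by HSPA9 at 1432 ± 23.9 and LONP1 at 991 ± 8.86. CLPP followed at 626 ± 6.99. HSPE1 at 540.1 ± 44.5 and GRPEL1 at 539 ± 26.3 could not be ordered, since their libraries overlapped. TRAP1 stood at 407 ± 9.69 and CLPX, the lowest, at 163 ± 9.29. Exon overlap with other genes was largest in TRAP1, at 28.5% of its exon bases, and in HSPE1, at 17.9%. Both levels are less certain for that reason. In HSPE1, 10.5% lie in the readthrough gene HSPE1-MOB4, which was listed at 0 in every library, and 7.41% opposite HSPD1. These shares are of the 1823 exon bases of all its transcripts, while its level is per kilobase of a canonical transcript of 557 bases. The stretch shared with HSPE1-MOB4 is 192 bases, and how much of it lies in the canonical transcript was not counted. As 100% of the exon bases of HSPE1-MOB4 lie in other genes, its 0 does not show that it was silent. How reads in shared bases were assigned is not given in the sources used here, and its part in these levels was not tested.

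At 500 nM, 5 of the 8 transcripts rose and none fell: both chaperonin genes, the matrix HSP70 with its exchange factor, and the protease LONP1. Of all tested genes, 7.69% rose and 10.1% fell at this dose, 17.8% in all. At 50 nM, 3 of the 8 rose (HSPD1, HSPE1 and HSPA9), against 2.29% of all genes (6.00% changed in either direction). Leaving out DMSO replicate 1, 50 nM replicate 1 or 50 nM replicate 3 brought that count to 1. Of the 13561 genes, 231, 204 and 213 then rose, in that order, against 311 with all libraries. Those changed in either direction were 610, 560 and 596, against 814. Without 0.5 nM replicate 2 the members called at 50 nM came to 5, where 3.97% of all genes rose (9.41% in either direction). At 0.5 and 5 nM none of the 8 passed the test with limma (a linear model on log2 counts, adjusted p under 0.05 over all tested genes), where 1.17% and 2.18% of all genes did. With single libraries left out these shares ran from 0.140% (without DMSO replicate 1) to 2.88% (without 0.5 nM replicate 3) at 0.5 nM, and from 0.833% (without DMSO replicate 1) to 4.59% (without 0.5 nM replicate 2) at 5 nM, and 0 members were called in each case. Every DMSO library and 0.5 nM replicates 1 and 3 moved the first share by over 1.5 times, and every DMSO library, 5 nM replicates 1 and 2 and 0.5 nM replicate 2 the second. An unadjusted p under 0.05 was reached by 4 members at 0.5 nM and 1 at 5 nM. Among the 13561 tested genes, 1997 and 1749 reached it. Neither edgeR nor DESeq2 called a member at either dose. Bulk RNA gives each transcript's share of the total, so a change of RNA per cell and a change in the mix of cells cannot be told apart.

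HSPD1 encodes the subunit of the matrix chaperonin HSP60, the barrel in which imported proteins fold. Its DMSO libraries held 8825, 8862 and 8839 normalized counts, the 0.5 nM libraries 9195, 9871 and 8821, and the 5 nM libraries 9260.0, 9883 and 8814. The 50 nM libraries held 12627, 10925 and 11463, and the 500 nM libraries 13747, 13759.8 and 13186. Every library at 50 nM and 500 nM lay above all 9 libraries of the lower doses and DMSO, and the 500 nM libraries lay above all those at 50 nM. The log2 fold change against DMSO was 0.40 ± 0.06 (SE, n = 3) at 50 nM (adjusted p = 8.41e-05) and 0.62 ± 0.06 at 500 nM (adjusted p = 1.57e-07), a 1.53-fold rise. It was 0.07 ± 0.06 at 0.5 nM and 0.07 ± 0.06 at 5 nM, neither past the threshold.

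HSPE1 encodes HSP10, the lid that closes the HSP60 chamber. DMSO libraries held 282, 329 and 292 normalized counts, 0.5 nM libraries 315, 453 and 348, and 5 nM libraries 343, 321 and 298. At 50 nM there were 401, 374 and 396, and at 500 nM 513, 494 and 428. The 50 nM and 500 nM libraries lay above DMSO without overlap, and replicate 2 of 0.5 nM, the library that stood apart, was above the lowest of the 500 nM libraries. The log2 fold change was 0.67 ± 0.11 at 500 nM (SE, n = 3; adjusted p = 0.000202) and 0.38 ± 0.11 at 50 nM (adjusted p = 0.0447). The call at 50 nM was lost on leaving out any 1 of 9 libraries, namely DMSO replicates 1 and 3, every 5 nM and 50 nM library and 500 nM replicate 2 (adjusted p 0.0501 to 0.172), with edgeR (adjusted p = 0.0528) and with no filter on low genes (adjusted p = 0.0632), while that at 500 nM held throughout.

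**Figure D1:**
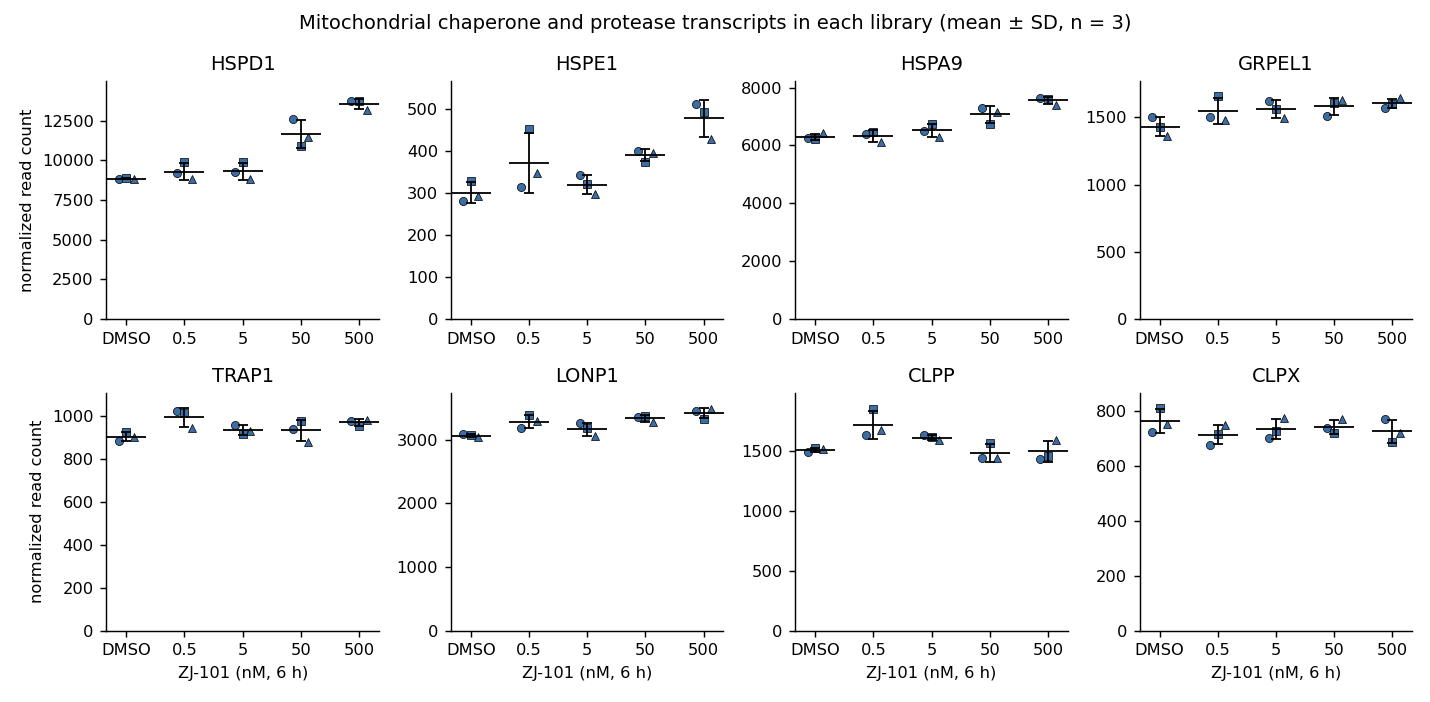
Normalized read count of each of the 8 transcripts (vertical axes, each from 0) in every library by dose of ZJ-101 in nM (horizontal axes). Points are libraries (circle, square and triangle for replicates 1, 2 and 3), and bars the mean with the SD (n = 3). HSPD1 at 50 and 500 nM sits between 10925 and 13759.8, above all other libraries, whereas CLPX overlaps DMSO at every dose.

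HSPD1 and HSPE1 lie together on chromosome 2, on opposite strands. From the RefSeq starts used below they are transcribed away from each other, while in GENCODE the full span of HSPD1 contains HSPE1. On GRCh38 (GENCODE release 44), HSPD1 lies on the minus strand at chr2:197486584-197516737 and HSPE1 on the plus strand at chr2:197500140-197503449, and 135 bases of their exons overlap on opposite strands. Promoter windows of RefSeq (GRCh38.p14, 250 bases before to 50 after each start) were at hand for 6 of the 8 members, in 8 windows, GRPEL1 and CLPP not being among them. They were searched on both strands for the heat-shock element, which is built of inverted units of GAA and TTC. A run of 4 units, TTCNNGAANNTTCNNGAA, was found in 9 of 35116 windows (0.0256%), and HSPD1 was the sole member with it, at -245 to -228 from a start at 197499840. That run sits inside an annotated exon of HSPD1, between the RefSeq start used for HSPD1 and the RefSeq start of HSPE1 at 197500379, 294 bases from the latter. It ended at 197500085, so the HSPE1 window, from 197500129, and the other HSPD1 window, from 197500225, did not reach it. Of the 9 windows, 3 belonged to tested genes, so the other two, CHORDC1 and COMMD1, are shown for comparison, both named after their values were seen. HSPA9 is shown because its window held a pair of units, TTCNNGAA, from -4 to 3 across its own start, which 7.74% of windows contain. The other phase of the pair, GAANNTTC (6.77% of windows), and the run of 3 units, TTCNNGAANNTTC (0.49%), were each in 1 member window, as parts of the run of HSPD1. Capitals mark the motif in 30 bases, 5′ to 3′ on the gene's strand.
HSPD1 (chr2:197500061-197500090, minus strand): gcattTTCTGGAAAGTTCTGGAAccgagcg
CHORDC1 (chr11:90223080-90223109, minus strand): gaaaaTTCGCGAAGGTTCCTGAAacgcaac
COMMD1 (chr2:61888596-61888625, plus strand): ctgccTTCACGAACCTTCCAGAAagcggcg
HSPA9 (chr5:138575387-138575416, minus strand): tggttggaggtTTCCAGAAgcgctgccgcc
The values of these genes differed widely. CHORDC1, a co-chaperone of HSP90, rose by 1.10 ± 0.07 on the log2 scale at 500 nM (SE, n = 3; adjusted p = 1.25e-09), HSPD1 by 0.62 and HSPA9 by 0.26, while COMMD1 had a log2 fold change of 0.07 ± 0.11 (adjusted p = 0.73). The sequence TTGCATCA, a composite element of CHOP or a C/EBP factor with an ATF factor, was in 0 of the 8 member windows and in 0.866% of all windows. The other motifs searched, all on both strands, were GGGCGG, the GC box, in 7 member windows (45% of all windows), CACGTG, the E-box of MYC, in 4 (7.26%), and TGACGTCA, the cyclic AMP element, in that of TRAP1 (1.85%). The E-box windows were those of HSPA9 and LONP1 and the overlapping windows of HSPD1 and HSPE1, which share the site. A match of letters is a description of the window and does not show that a factor binds there.

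The ratio of HSPE1 to HSPD1 within a library is free of any scaling between libraries. It was 0.0319, 0.0371 and 0.0331 in DMSO and 0.0373, 0.0359 and 0.0325 at 500 nM, with overlapping libraries. The log2 ratio differed by 0.05 (two-sided exact permutation p = 0.7, 3 libraries against 3, where 0.1 is the smallest p possible), and left out in turn, single libraries moved this difference between 0.0056 and 0.11. Of the other doses, the largest difference was 0.22 at 0.5 nM (exact permutation p = 0.2), with the library that stood apart at the highest ratio of all 15, 0.0459. Read counts of the processed pseudogene HSPD1P1, named after its values were seen and 97.4% identical to HSPD1 over 67.8% of the transcript, had a mean of 92.8 and rose too, by 0.84 ± 0.17 on the log2 scale at 500 nM (adjusted p = 0.00198). Whether these were reads of HSPD1 was not tested.

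HSPA9, also called mortalin, is the HSP70 of the matrix, at chr5:138553756-138575675 on the minus strand. Its DMSO libraries held 6266, 6225 and 6424 normalized counts, the 0.5 nM libraries 6399, 6473 and 6104, and the 5 nM libraries 6510.5, 6746 and 6307. The 50 nM libraries held 7299, 6752 and 7167, and the 500 nM libraries 7638, 7617 and 7413. As with HSPD1, the 50 nM and 500 nM libraries were above all of DMSO, and here too every 500 nM library exceeded every 50 nM library. The log2 fold change was 0.17 ± 0.04 at 50 nM (SE, n = 3; adjusted p = 0.0198) and 0.26 ± 0.04 at 500 nM (adjusted p = 0.000166, 1.20-fold). The call at 50 nM was lost on leaving out replicate 1 or 2 of DMSO or replicate 1 or 3 of 50 nM (adjusted p 0.0787 to 0.11), and that at 500 nM held under every alternative.

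GRPEL1 encodes the nucleotide exchange factor that recharges HSPA9 with ATP, and lies at chr4:7058671-7068085 on the minus strand. DMSO libraries held 1501, 1427 and 1362 normalized counts, 0.5 nM libraries 1502, 1656 and 1481, and 5 nM libraries 1626, 1564 and 1493. At 50 nM there were 1509.7, 1606 and 1629.5, and at 500 nM 1574, 1598 and 1644. The treated groups overlapped each other, and those of 0.5 and 5 nM also overlapped DMSO, which those of 50 and 500 nM did not. The log2 fold change was 0.11 ± 0.05 at 0.5 nM (SE, n = 3; adjusted p = 0.341). It was 0.13 ± 0.05 at 5 nM, 0.15 ± 0.05 at 50 nM and 0.17 ± 0.05 at 500 nM, of which the last passed the test (adjusted p = 0.036). That call was lost without DMSO replicate 2 or 3 and without any 1 of the 500 nM libraries (adjusted p 0.0587 to 0.16). At 50 nM GRPEL1 missed the threshold (adjusted p = 0.134), and it passed without 0.5 nM replicate 2 (adjusted p = 0.0485).

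TRAP1, the HSP90 of mitochondria, is at chr16:3651639-3717553 on the minus strand. DMSO libraries held 885, 928 and 901 normalized counts and 500 nM libraries 978, 952 and 981, which did not overlap. The 0.5 nM libraries, at 1024, 1014 and 942, also lay above DMSO, while the 5 nM libraries (959, 915 and 930.2) and the 50 nM libraries (941, 979 and 879) overlapped DMSO. No dose passed the test, the log2 fold change at 500 nM being 0.10 ± 0.05 (SE, n = 3; adjusted p = 0.196) with a 95% interval of -0.0054 to 0.21. Over its exons, 28.5% of the bases also belong to DNASE1 on the opposite strand (mean 157 counts), and the part of such reads in the values was not tested.

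LONP1, the ATP-dependent protease that clears oxidized and misfolded matrix proteins, lies at chr19:5691834-5720572 on the minus strand. DMSO libraries held 3089, 3069 and 3034 normalized counts, 0.5 nM libraries 3176, 3382 and 3286, and 5 nM libraries 3261, 3175 and 3054. At 50 nM there were 3352, 3376 and 3275, and at 500 nM 3453, 3326 and 3479.8. DMSO was narrow and low, and each of the other groups except 5 nM lay wholly above it. The log2 fold change was 0.16 ± 0.04 at 500 nM (SE, n = 3; adjusted p = 0.00814, 1.12-fold), 0.12 ± 0.04 at 50 nM (adjusted p = 0.0801) and 0.10 ± 0.04 at 0.5 nM (adjusted p = 0.251). Without 0.5 nM replicate 2 the value at 50 nM passed (adjusted p = 0.0325), which brought the members called at that dose to 5 of 8.

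CLPP is the peptidase and CLPX the unfolding ATPase of a barrel-shaped matrix protease, at chr19:6361531-6370242 on the plus strand and chr15:65148219-65185342 on the minus strand. CLPP stood at 1489, 1520.5 and 1514 normalized counts in DMSO, 1626, 1847 and 1671 at 0.5 nM, and 1627, 1609.7 and 1584 at 5 nM. It was 1438, 1562 and 1437 at 50 nM and 1431, 1457 and 1589 at 500 nM. All libraries of the lowest 2 doses thus lay above DMSO, and those of the highest 2 doses overlapped it. The log2 fold change was 0.18 ± 0.05 at 0.5 nM (SE, n = 3; unadjusted p = 0.00309, adjusted p = 0.115) and -0.02 ± 0.05 at 500 nM (adjusted p = 0.886, 95% interval -0.13 to 0.10).

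CLPX stood at 726, 811 and 755 normalized counts in DMSO, 678, 715 and 748 at 0.5 nM, 702, 728 and 776 at 5 nM, 738, 719 and 770.1 at 50 nM and 770.5, 687 and 721 at 500 nM. Its libraries overlapped DMSO at every dose, and at 500 nM the log2 fold change was -0.07 ± 0.06 (SE, n = 3; adjusted p = 0.478, 95% interval -0.20 to 0.06). The ratio of CLPX to CLPP went from 0.487, 0.534 and 0.499 in DMSO to 0.417, 0.387 and 0.447 at 0.5 nM, without overlap, a log2 difference of -0.28 (exact permutation p = 0.1, the smallest possible). At 500 nM it was 0.539, 0.471 and 0.454, and the difference was -0.06 (exact permutation p = 0.6).

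**Figure D2:**
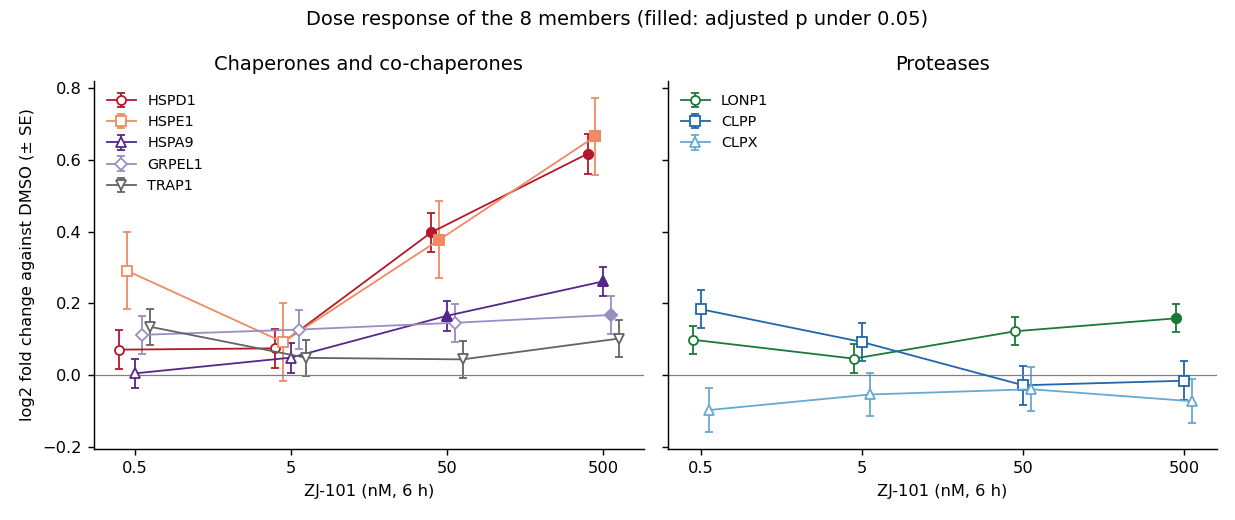
Log2 fold change against DMSO (vertical axis, ± SE, n = 3) of the chaperones (left) and proteases (right) by dose of ZJ-101 in nM (horizontal axes), filled where the adjusted p was under 0.05. HSPD1 and HSPE1 reach 0.62 and 0.67 at 500 nM, apart from HSPA9 at 0.26 and the rest at 0.17 or less.

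Counted by library rather than by test, 6 of the 8 members had all 500 nM libraries above all DMSO libraries, against 18.9% of all genes. The 6 were the 5 called members and TRAP1. At 50 nM it was 5 of 8 (HSPD1, HSPE1, HSPA9, GRPEL1 and LONP1), against 11.6%. At 0.5 nM it was 3 of 8 (TRAP1, LONP1 and CLPP), against 7.43%, and at 5 nM it was CLPP only, against 10.5%. No member had all treated libraries below DMSO at any of the 4 doses, where 10.7%, 12.7%, 13.2% and 19.6% of all genes did, from the lowest dose to the highest. The members' median log2 fold change was 0.16 at 500 nM and 0.13 at 50 nM, beside 0.0027 and -0.0023 over all tested genes, and at 0.5 and 5 nM it was 0.11 and 0.06, beside -0.0069 and -0.00028.

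The dose response was tested as a slope over dose ranks, with DMSO at 0 and the doses at 1 to 4. The same 5 members rose with dose, and 8.23% of all genes did (17.6% in either direction). Slopes per step of dose on the log2 scale were 0.16 ± 0.02 for HSPD1 (SE, 15 libraries; adjusted p = 3.65e-06), 0.14 ± 0.03 for HSPE1 (adjusted p = 0.00178) and 0.07 ± 0.01 for HSPA9 (adjusted p = 0.000114). GRPEL1, at 0.037 ± 0.012 (adjusted p = 0.0421), and LONP1, at 0.034 ± 0.0099 (adjusted p = 0.0205), had the lowest slopes of the 5. The call of GRPEL1 was lost on leaving out any 1 of 11 libraries, namely every DMSO and 500 nM library, 0.5 nM replicates 1 and 3, 5 nM replicate 2 and 50 nM replicates 2 and 3 (adjusted p 0.051 to 0.139), and with edgeR (adjusted p = 0.0572), and that of LONP1 on leaving out any 1 of 4, replicates 2 and 3 of DMSO and 1 and 3 of 500 nM (adjusted p 0.0515 to 0.067). Over the 12 treated libraries alone, neither passed the test (adjusted p = 0.482 and 0.254).

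Over the 12 treated libraries CLPP fell by 0.07 per step of dose on the log2 scale (SE 0.019; adjusted p = 0.0137), where 8.57% of all genes fell. Without 0.5 nM replicate 2, an alternative added after that library was seen to stand apart, it fell by 0.06 (adjusted p = 0.0381; 8.53% of all genes). With DMSO included the slope was -0.024 ± 0.016 (adjusted p = 0.346), the DMSO libraries standing below those of 0.5 nM. HSPD1, HSPE1 and HSPA9 rose over the treated libraries too, by 0.20 ± 0.02, 0.14 ± 0.04 and 0.09 ± 0.01 per step (adjusted p = 2.34e-05, 0.0353 and 0.000336), as did 9.20% of all genes, and they also rose without 0.5 nM replicate 2, where 8.63% of all genes did.

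Between neighbouring doses, HSPD1 was the sole member called, from 5 to 50 nM (0.32 ± 0.06 on the log2 scale, SE, n = 3; adjusted p = 0.00125) and again from 50 to 500 nM (0.22 ± 0.06; adjusted p = 0.0418). Of all genes, 2.62% rose in the first of these steps (5.01% in either direction) and 0.479% in the second (2.28% in either direction). With single libraries left out, the shares in either direction ran from 3.13% (without 5 nM replicate 3) to 8.33% (without 0.5 nM replicate 2) and from 1.02% (without 50 nM replicate 2) to 4.65% (without 0.5 nM replicate 2). Beside these, 5 nM replicate 2 and 50 nM replicate 1 moved the first by over 1.5 times, and 500 nM replicates 2 and 3 the second. From 0.5 to 5 nM no member was called by limma, edgeR or DESeq2, and limma called 0.118% of all genes (0.0516% without 5 nM replicate 2 to 0.184% without 0.5 nM replicate 2). In this step 0 members had an unadjusted p under 0.05, where 1079 of the 13561 tested genes did. The call of HSPD1 from 50 to 500 nM was lost on leaving out any 1 of 10 libraries, namely every DMSO and 500 nM library, 0.5 nM replicate 1, 5 nM replicate 1 and 50 nM replicates 2 and 3 (adjusted p 0.0541 to 0.233). Without 0.5 nM replicate 2, HSPE1 was called in both steps as well (adjusted p = 0.0312 and 0.0434), where 4.11% and 1.68% of all genes rose. CLPP had a log2 difference of -0.12 ± 0.05 from 5 to 50 nM (adjusted p = 0.243), with its 50 nM libraries all below those at 5 nM.

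Relatives of the members work in the cytosol and in the endoplasmic reticulum (ER), and in the HSP70 and HSP90 families their log2 fold changes at 500 nM lay on both sides of those of the mitochondrial forms. Of 9 relatives tested, 5 rose and 2 fell, where 7.69% of all genes rose and 10.1% fell. HSPA8, the constitutive cytosolic HSP70, rose from 32831, 30333 and 29337 normalized counts in DMSO to 73465, 72786 and 71796 at 500 nM, a log2 fold change of 1.24 ± 0.06 (SE, n = 3; adjusted p = 1.94e-11). HSPA5, the ER form also known as BiP, went from 14375, 14267 and 13787 to 5384, 5282 and 5651, falling by 1.38 (SE 0.04; adjusted p = 1.50e-13). HSPA9 with its rise of 0.26 stood between them. The ratio of HSPA8 to HSPA9 within a library was 4.57 to 5.24 in DMSO and 9.56 to 9.69 at 500 nM, and that of HSPA5 to HSPA9 was 2.15 to 2.29 and 0.694 to 0.762, both without overlap (exact permutation p = 0.1 each, the smallest possible).

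The HSP90 family had the same order. HSP90AA1 and HSP90AB1, the inducible and constitutive cytosolic forms, rose by 1.20 ± 0.06 and 0.64 ± 0.05 on the log2 scale at 500 nM (SE, n = 3; adjusted p = 5.46e-11 and 1.03e-08). HSP90B1, the ER form, fell by 0.34 (SE 0.04; adjusted p = 8.15e-06), and TRAP1 lay between them at 0.10, not past the threshold. The ratio of HSP90AA1 to TRAP1 went from 47.7 to 49.5 in DMSO libraries to 102 to 107 at 500 nM, and that of HSP90B1 to TRAP1 from 17.1 to 18.1 down to 12.7 to 13.4 (exact permutation p = 0.1 each).

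Of the cytosolic chaperonin TRiC, TCP1 was the sole subunit among the relatives, and HSPD1 had a larger value than TCP1. TCP1 rose by 0.45 ± 0.05 on the log2 scale at 500 nM (SE, n = 3; adjusted p = 5.71e-06), beside 0.62 for HSPD1. Their ratio was 0.539 to 0.559 in DMSO and 0.469 to 0.51 at 500 nM, a log2 difference of -0.17 without overlap (exact permutation p = 0.1). Among exchange factors of HSP70, cytosolic HSPH1 rose by 1.45 ± 0.07 (adjusted p = 2.05e-11) beside 0.17 for GRPEL1, and ER-resident SIL1 had a log2 fold change of -0.20 ± 0.08 (adjusted p = 0.0743). LONP2, the peroxisomal relative of LONP1, stood at 0.16 ± 0.07 (adjusted p = 0.111), the same size as LONP1. Of the 7 ratios, 5 were chosen after values were seen, and adjusted over all 28 comparisons of a ratio with DMSO the lowest p was 0.187.

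**Figure D3:**
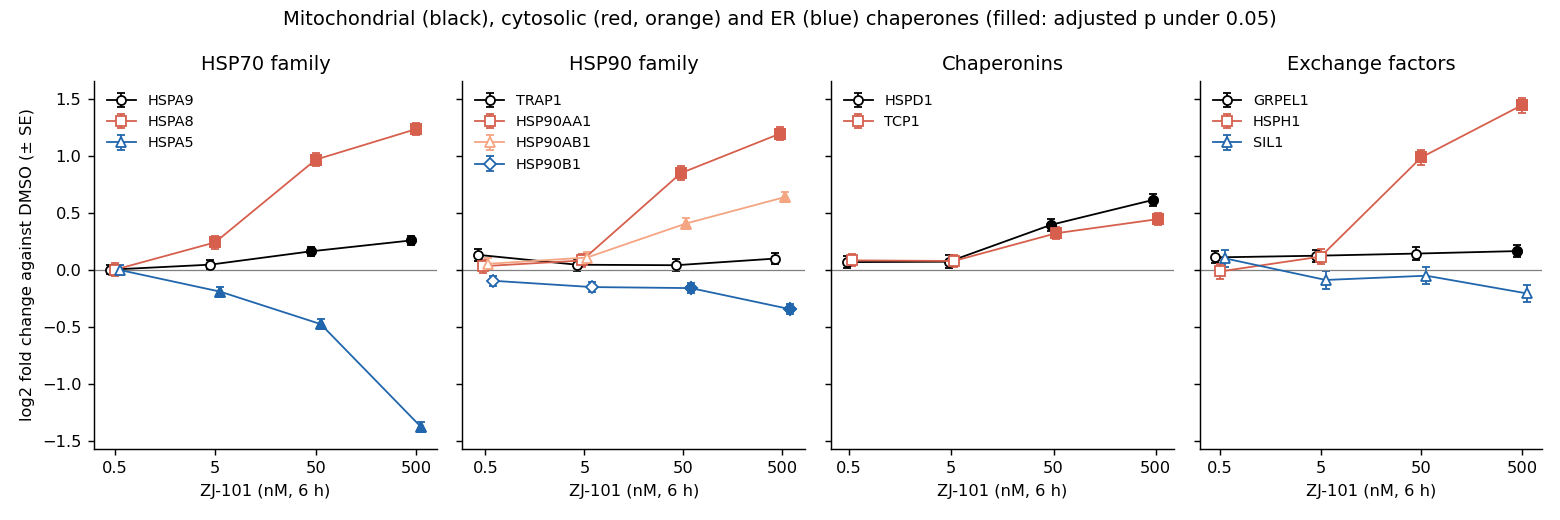
Log2 fold change against DMSO (vertical axis, ± SE, n = 3) by dose of ZJ-101 in nM (horizontal axes) for mitochondrial members (black) and their cytosolic (red, orange) and ER (blue) relatives, filled where the adjusted p was under 0.05. At 500 nM HSPA9 at 0.26 lies between HSPA8 at 1.24 and HSPA5 at -1.38, and HSPD1 at 0.62 lies above TCP1 at 0.45.

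**Figure D4:**
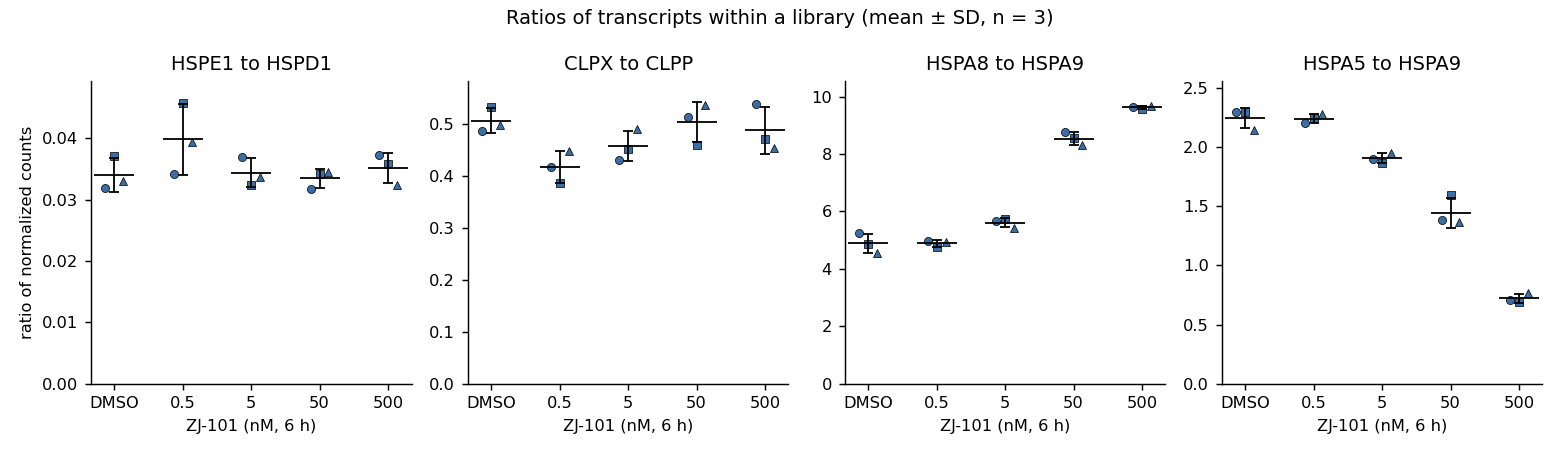
Ratio of normalized counts within each library (vertical axes, each from 0) by dose of ZJ-101 in nM (horizontal axes), with the mean and SD of 3 libraries. HSPE1 to HSPD1 and CLPX to CLPP overlap DMSO at 500 nM, whereas HSPA8 to HSPA9 reaches 9.56 to 9.69 and HSPA5 to HSPA9 drops to 0.694 to 0.762.

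Of 49 further folding factors, proteases and import genes tested (54 listed), 4 rose and 1 fell at 500 nM, or 8.16% and 2.04%, beside 7.69% and 10.1% of all genes. The median log2 fold change of these genes was 0.05. Among 10 folding factors, PPIF, the matrix prolyl isomerase cyclophilin D, rose by 0.19 ± 0.05 (SE, n = 3; adjusted p = 0.0181) and BCS1L, an assembly factor of the respiratory chain, by 0.22 ± 0.07 (adjusted p = 0.025). Among 15 proteases, PITRM1, which degrades cleaved presequences, rose by 0.14 ± 0.05 (adjusted p = 0.0431), and LACTB, a protease-like protein of the intermembrane space, fell by 0.17 (SE 0.05; adjusted p = 0.0423). Among 24 import genes, TOMM20, a receptor of the outer membrane, rose by 0.18 ± 0.04 (adjusted p = 0.00788), and the 23 others did not pass. The farthest value was that of DNAJA3, a matrix J-domain partner of HSPA9, named after its values were seen: -1.23 ± 0.67 (adjusted p = 0.239), with libraries from 258 to 501 counts in DMSO and from 52 to 284 at 500 nM.

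Of 12 regulators of the response tested, JUN rose and CEBPB fell at 500 nM, where 7.69% of all genes rose and 10.1% fell (17.8% in all). JUN, a subunit of AP-1, went from 2509, 2412 and 2293 normalized counts to 3108, 3055 and 2907 (log2 fold change 0.33 ± 0.04, SE, n = 3; adjusted p = 2.63e-05), and it rose at each lower dose too, by 0.24 ± 0.04 at 0.5 nM, 0.31 ± 0.04 at 5 nM and 0.23 ± 0.04 at 50 nM (adjusted p = 0.0142, 0.00097 and 0.00278). CEBPB, which encodes the C/EBPβ partner of CHOP, went from 2371, 2445 and 2274 to 1631, 1419 and 1267 and fell by 0.72 (SE 0.09; adjusted p = 1.07e-05), after a fall by 0.33 at 50 nM (adjusted p = 0.0359). The factors most often tied to this response did not pass the test at 500 nM: ATF4 had a log2 fold change of -0.0038 ± 0.052, ATF5 of 0.15 ± 0.12 and DDIT3, which encodes CHOP, of 0.29 ± 0.18 (adjusted p = 0.973, 0.44 and 0.303). DDIT3 was low, with 47 to 64 counts in DMSO and 67 to 72 at 500 nM. HSF1 itself was at 0.08 ± 0.04 (adjusted p = 0.224). SSBP1, the single-strand DNA-binding protein of mitochondria, had the highest value of the 12, 0.44 ± 0.15, and missed the threshold (adjusted p = 0.0594), with libraries from 228 to 267 counts in DMSO and from 263 to 430.1 at 500 nM. The other 5, DELE1, EIF2AK1, NRF1, SIRT3 and FOXO3, lay between -0.20 and 0.14.

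**Figure D5:**
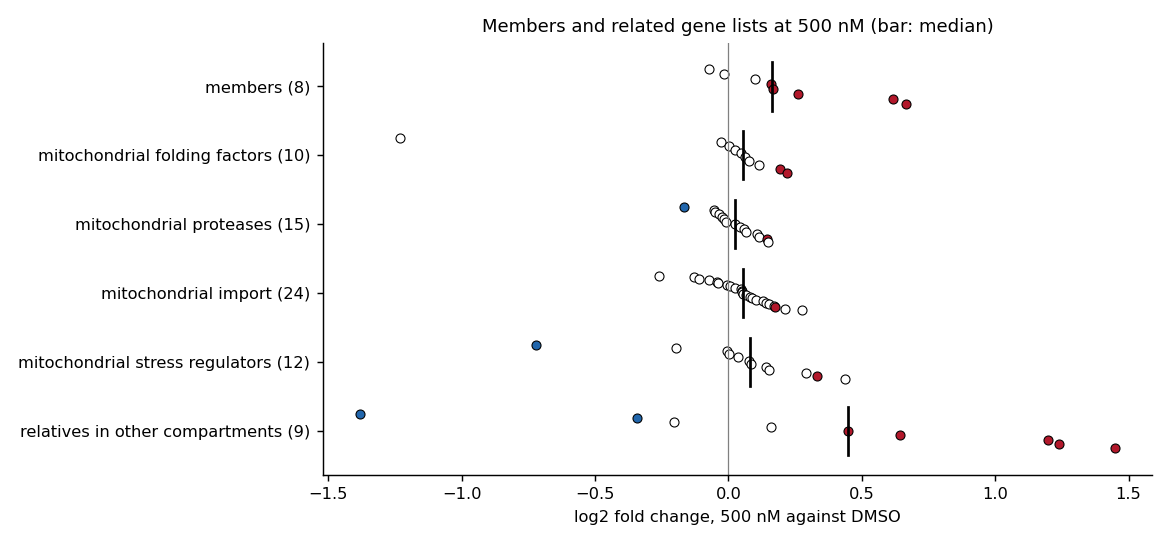
Log2 fold change at 500 nM against DMSO (horizontal axis) of each tested gene in 6 lists (rows, number tested in brackets), red where it rose and blue where it fell at an adjusted p under 0.05, with the list's median as a bar. The members' median is 0.16, that of the folding factors 0.06, of the proteases 0.026 and of the import genes 0.05.

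Across the 15 libraries, the transcripts most like HSPD1 were other chaperones. By Pearson's r of log2 counts over 13560 other genes, they were HSP90AB1 (0.99), CCT6A (0.986), HSP90AA1 (0.984), TCP1 (0.981) and HSPA9 (0.98), where CCT6A and TCP1 are both subunits of TRiC. HSPE1, its neighbour and partner, came at rank 263 with r = 0.862, and LONP1 at rank 560 with 0.785. For LONP1 the closest were CNIH4 (0.941), ANXA1 (0.927), UBB (0.896), CCL26 (0.889) and TPD52L2 (0.884), with HSPE1 at rank 16 (0.866) and HSPD1 at rank 105. The r of CLPP and CLPX with HSPD1 was -0.471 and -0.157. The libraries share the dose groups and their depth, so these values describe the pattern over doses and are not a test.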

How the data were processed

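The authors sequenced poly-A selected RNA as paired-end reads, mapped them to hg38 (HISAT2), counted them over genes (htseq-count) and deposited counts divided by DESeq2 size factors, a per-gene signal on a common depth. Each factor was worked out from the values, as the one that turns them into whole reads, and with it 100% of values above 0 were whole within 0.001. Size factors recomputed from these reads by the median of ratios differed from them by at most 7.21e-11 in relative terms. Library strandedness and aligner versions are not given in the sources used here. One line without a gene was left out.

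The 13561 genes averaging 10 or more normalized counts were tested with limma 3.58.1 on log2(normalized count + 1), with a variance trend, 5 groups in 1 fit and Benjamini-Hochberg adjustment over all tested genes, and fold changes are on that scale. Ratios were compared by two-sided exact permutation tests. edgeR 4.0.16 and DESeq2 1.42.0 (R 4.3.3) on recovered reads, other pseudocounts, filters, scalings and left-out libraries were alternatives. The code was tested on simulated data. Intervals are 95%.

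The 8 members and all gene lists were chosen with earlier results of these data known. Named were all members, all regulators tested, relatives, at most 3 called genes of each other list in each direction, and the 5 transcripts most like HSPD1 and LONP1.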

Additional observations from a re-analysis of the deposited data

How the results depend on the processing

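With 3 libraries a group, the smaller changes are hard to resolve. HSPE1, at about 301 counts in DMSO, had a standard error of 0.11 on the log2 scale, against 0.04 to 0.06 for the other members. Its SD was 71.7 counts at 0.5 nM, the group of the library that stood apart, and 14.0 to 44.2 in the other groups. The part of depth in this was not tested.

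The counts of members called at 0.5, 5 and 500 nM and from 0.5 to 5 nM were within 1.5 times under all alternatives run, at 0, 0, 4 to 5 and 0 of 8. At 50 nM, 3 members became 1 with no filter on low genes, where 678 of 31620 genes were called, and 1 to 5 when single libraries were left out. By the slope on dose rank, 5 became 3 with no filter, 4 with edgeR (GRPEL1 lost) and 3 to 5 when single libraries were left out. Over all genes, the slope called 2381 of 13561 in the main fit and 1906 of 31620 with no filter. It called 2398 with edgeR and 1783 to 2688 with single libraries left out. From 5 to 50 nM, 1 became 2 when only the 2 groups compared were fitted, where 853 of 13561 genes were called, and 1 to 2 with libraries left out. From 50 to 500 nM, 1 became 0 with no filter (251 of 31620 genes called) and with edgeR (305 of 13561), and 0 to 2 with libraries left out. Over all genes, with single libraries left out, the 159 genes called at 0.5 nM became 19 to 391, the 295 at 5 nM 113 to 623, the 814 at 50 nM 560 to 1276, and the 16, 679 and 309 between neighbouring doses 7 to 25, 424 to 1129 and 139 to 630. With only the 2 groups compared in the fit, 159, 295 and 16 became 21, 846 and 4, and DESeq2 called 29 from 0.5 to 5 nM. The cause of these shifts was not tested. Single members changed sign only where the main value was near 0: CLPX at 50 nM ranged from -0.076 to 0.0043 with libraries left out, positive without DMSO replicate 2, and CLPP at 500 nM from -0.062 to 0.014, positive without 500 nM replicate 1 or 2 (0.0003). GRPEL1 at 500 nM was also lost with no filter (adjusted p = 0.0824).

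With a replicate block, the same number of members was called in every comparison (0, 0, 3 and 5 against DMSO, 5 by the slope, and 0, 1 and 1 between neighbouring doses), 14 list genes called at 500 nM became 15, and the paired log2 differences of the ratios at 500 nM were 0.05 for HSPE1 to HSPD1 and -0.06 for CLPX to CLPP. The values showed little pairing by replicate number: over 30 same-numbered pairs the deviations from group means correlated from -0.0855 to 0.0961, and 7 of 15 libraries were closest to their own number. Whether libraries of the same number were handled together cannot be told from these values.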
